A study of Mus musculus with 2 samples.

Results

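Hopx, Tnc, Ptprz1, Fam107a, Lifr, Itgb5, Fabp7 and Aldoc are genes associated with basal radial glia, and they were taken by symbol from the gene list of the count matrices, where all 8 were found among 32285 genes. They were read in 2 single-cell libraries from the dorsal telencephalon of mouse embryos at embryonic day 14.5 (E14.5). Both libraries were labelled WT and came from control animals of an Eomes-Cre line (EomesDot in the labels), so there was 1 group and no treatment. The methods of the study name C57BL/6J embryos, and the study counts more samples for this experiment than the 2 libraries analysed here. Which of them these are, how the line relates to that strain, and whether a library was made from 1 embryo or from several, is not given in the sources used here. The titles number the libraries, and they appear here as replicate 2 and replicate 4.

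Radial glia are the stem cells of the developing cortex. Apical radial glia divide at the ventricle and keep a process to the pial surface, whereas basal (outer) radial glia have left the ventricular surface and keep only the basal process. Basal radial glia are abundant in the expanded cortex of primates and sparse in the mouse, and the 8 genes are associated with them, some as markers from human fetal cortex and others, such as Fabp7, as genes of radial glia in general. Tnc is a matrix glycoprotein of the tenascin family, Ptprz1 is a receptor tyrosine phosphatase that binds tenascins and pleiotrophin, and Itgb5 is an integrin beta subunit that pairs with Itgav. Lifr is the receptor subunit for the cytokine LIF and signals with Il6st through Jak and Stat3. Hopx is a homeodomain-only protein without DNA binding of its own, Fam107a is an actin-associated protein, Fabp7 is the brain fatty acid-binding protein of radial glia, and Aldoc is the brain form of the glycolytic enzyme aldolase.

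The matrices held 1712 and 2589 barcodes with 40267872 and 49422007 UMIs, where a UMI marks 1 captured RNA molecule. After filtering, 1197 and 1956 cells remained with medians of 30810 and 22948.5 UMIs. Cells were clustered with the 8 members left out of the genes used, and clusters were named from marker lists. The radial glia-like class (RGC-like) held 241 and 415 cells, the intermediate progenitor-like class (IPC-like) 151 and 248, the excitatory neuron-like class 552 and 857, the GABAergic neuron-like class 84 and 247, and the hem or choroid plexus-like class 33 and 22. The hem or choroid plexus-like class was led by Ttr, Htr2c and Trpm3. Within the GABAergic neuron-like class, a cluster of 6 and 30 cells had Top2a and Mki67 among its leading genes. Radial glial markers such as Pax6 and Sox2 were raised in that cluster too. Another GABAergic cluster had 1 and 37 cells. All 11 radial glial markers were raised in each of the 4 RGC-like clusters. Their summed level was 5004 and 4734 CPM (counts scaled to 1e+06 UMIs of the sum) in RGC-like cells, against 1168 and 1134 CPM in IPC-like cells and 224 and 250.4 CPM in excitatory neuron-like cells. In GABAergic neuron-like cells it was 449 and 846 CPM. RGC-like cells also carried 440.4 and 353 CPM of the 8 IPC markers and 556 and 629 CPM of the 10 excitatory neuron markers, and the part of this RNA in the levels below was not tested. No class was named basal radial glia, because the members themselves are its markers. The libraries shared 3 barcodes, 1 of them among the retained cells.

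The stretch of 250 bases before a RefSeq transcript start (GRCm38.p6, which matches the mm10 build of the files) is shown for the 4 members that were higher in RGC-like cells than in both neuron-like classes, IPC-like cells and, except for Hopx, hem or choroid plexus-like cells. The 3′ reads do not tell which start was used, and where RefSeq lists several, the one shown was picked for its motif matches. The sequences are written 5′ to 3′ on the strand of the gene, and capitals mark motif matches on either strand. They lie at chr5:77095268-77095517 (minus strand) for Hopx, chr4:64047016-64047265 (minus strand) for Tnc, chr10:57784673-57784922 (plus strand) for Fabp7 and chr11:78323948-78324197 (plus strand) for Aldoc.
Hopx: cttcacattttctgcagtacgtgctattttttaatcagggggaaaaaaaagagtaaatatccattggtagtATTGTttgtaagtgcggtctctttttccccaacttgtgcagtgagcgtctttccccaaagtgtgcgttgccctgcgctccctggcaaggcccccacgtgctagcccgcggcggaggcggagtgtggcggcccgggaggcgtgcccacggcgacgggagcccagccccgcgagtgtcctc
Tnc: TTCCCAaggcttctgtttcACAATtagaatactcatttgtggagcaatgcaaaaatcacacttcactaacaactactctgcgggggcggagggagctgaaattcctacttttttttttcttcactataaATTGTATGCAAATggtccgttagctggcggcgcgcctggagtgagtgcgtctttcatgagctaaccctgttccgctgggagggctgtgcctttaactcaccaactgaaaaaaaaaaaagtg
Fabp7: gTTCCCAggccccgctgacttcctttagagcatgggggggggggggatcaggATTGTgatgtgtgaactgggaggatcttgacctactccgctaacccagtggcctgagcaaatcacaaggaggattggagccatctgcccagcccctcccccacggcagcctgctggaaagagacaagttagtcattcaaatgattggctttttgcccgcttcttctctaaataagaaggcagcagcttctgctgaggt
Aldoc: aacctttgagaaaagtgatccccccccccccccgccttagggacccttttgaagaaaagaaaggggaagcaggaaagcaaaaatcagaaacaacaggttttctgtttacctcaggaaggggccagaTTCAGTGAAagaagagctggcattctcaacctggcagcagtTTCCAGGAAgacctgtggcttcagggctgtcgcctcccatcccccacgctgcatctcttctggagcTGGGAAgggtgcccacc
The motifs searched were TGGGAA (RBPJ, the Notch effector), ACAAT (SOX factors), TTCNNNGAA (STAT factors), the palindrome of NFI factors and ATGCAAAT (the octamer bound by POU factors). They occur in 21.6%, 27.7%, 7.02%, 0.0365% and 1.60% of 32851 such stretches. The Hopx stretch held 1 SOX match. The Tnc stretch held an RBPJ match, 2 SOX matches and an octamer that directly adjoins the second of them without overlap. The Fabp7 stretch held an RBPJ and a SOX match, and the Aldoc stretch an RBPJ match and 2 STAT matches. None of these letters was found before the starts of Ptprz1 and Itgb5, and none before the other start of Hopx. Members that did not mark radial glia held matches too, an RBPJ match before one start of Fam107a and a SOX match before one start of Lifr. These are matches of letters and not tested sites.

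Tnc was concentrated in radial glia. Its level was 125.8 CPM in replicate 2 and 92.3 CPM in replicate 4 of the RGC-like cells, a mean of 109 ± 23.7 CPM (SD, n = 2). It was 1.67 and 2.25 CPM in IPC-like cells, 0.518 and 0.642 CPM in excitatory neuron-like cells, and 0 and 2.99 CPM in GABAergic neuron-like cells. Neither library of these classes came near the RGC-like values. Among the other named classes the next levels were 24.0 and 18.0 CPM in hem or choroid plexus-like cells and 1.26 and 53.3 CPM in meningeal-like cells, a class of 19 and 35 cells whose libraries were far apart. The unnamed, shallow cells had 138 and 65.6 CPM. By edgeR's quasi-likelihood test with Benjamini-Hochberg adjustment over all genes, Tnc was higher in RGC-like than in IPC-like cells by 5.69 ± 0.72 (SE) on the log2 scale (adjusted p = 0.000191). The difference was 7.28 ± 0.73 against excitatory neuron-like cells (adjusted p = 6.99e-06), 5.71 ± 0.81 against GABAergic neuron-like cells (0.000157) and 2.31 ± 0.66 against hem or choroid plexus-like cells (0.0136). The last call was lost with the DESeq2 Wald test (adjusted p = 0.106). No source says that the libraries came from separate animals, so these p-values measure the spread between these libraries, which may be technical.

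Ptprz1, the phosphatase that binds Tnc, was shared between radial glia and part of the neurons. It was at 716 and 681.5 CPM in RGC-like cells (mean 699 ± 24.5, SD, n = 2), and at 527 and 420.1 CPM in excitatory neuron-like cells. The groups do not overlap, yet the difference of 0.35 ± 0.49 on the log2 scale did not pass the test (1.96 SE interval -0.62 to 1.31, adjusted p = 0.586). It passed when only the compared classes were fitted (adjusted p = 0.0419). GABAergic neuron-like cells had 153 and 313 CPM, lower by 1.50 ± 0.51 (adjusted p = 0.0291), a call that ended with DESeq2 (0.0504) and at a clustering resolution of 2 (0.0791). IPC-like cells lay below both radial glia and the summed neurons. Their Ptprz1 level was 32.1 and 58.0 CPM, lower than in RGC-like cells by 3.88 ± 0.56 on the log2 scale (adjusted p = 0.000415). Hem or choroid plexus-like cells had 61.3 and 44.4 CPM, lower by 3.68 ± 0.58 (0.000385). The excitatory clusters were far apart. Their lowest levels were 21.2 and 20.4 CPM in one cluster and 67.2 and 73.6 CPM in another, about as low as in IPC-like cells, whereas 3 of them had Ptprz1 levels like those of radial glia, at 1048 and 916, 780.5 and 688, and 930.2 and 816 CPM. These clusters were picked after their values were seen.

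Itgb5 was low in radial glia and highest outside the neural lineage. In RGC-like cells it reached 4.08 and 6.28 CPM, from 34 and 71 UMIs. It was 0.417 and 0.483 CPM in IPC-like cells, 0.777 and 0.504 CPM in excitatory neuron-like cells and 1.11 and 1.09 CPM in GABAergic neuron-like cells, with 15 or fewer UMIs in each sum. RGC-like cells were above all of these, by 3.40 ± 0.49 on the log2 scale against IPC-like cells (adjusted p = 0.00044), 2.79 ± 0.36 against excitatory neuron-like cells (4.77e-05) and 2.16 ± 0.51 against GABAergic neuron-like cells (0.00437). Hem or choroid plexus-like cells, at 45.5 and 30.5 CPM, were above RGC-like cells. The difference there was -2.91 ± 0.33 (adjusted p = 3.24e-05), and Itgb5 was the member called lower there. Meningeal-like cells had 47.8 and 48.2 CPM, so they and hem or choroid plexus-like cells could not be ordered by their spread.

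Lifr, the LIF receptor subunit, did not mark radial glia. Its level was 9.23 and 13.6 CPM in RGC-like cells, 7.29 and 7.57 CPM in IPC-like cells, 16.4 and 14.8 CPM in excitatory neuron-like cells and 8.36 and 10.0 CPM in GABAergic neuron-like cells. Values of hem or choroid plexus-like cells were 17.4 and 26.4 CPM, and those of meningeal-like cells 32.7 and 19.1 CPM. The log2 difference of RGC-like cells was 0.56 ± 0.33 from IPC-like cells (1.96 SE interval -0.08 to 1.21, adjusted p = 0.236) and 0.22 ± 0.36 from GABAergic neuron-like cells (adjusted p = 0.647). It was -0.65 ± 0.29 from excitatory neuron-like cells (adjusted p = 0.08) and -0.89 ± 0.39 from hem or choroid plexus-like cells (0.0799). The last pair of differences passed the test under 6 and 3 of the alternatives, with Lifr lower in RGC-like cells each time. Against IPC-like cells, Lifr was higher at a clustering resolution of 0.5 (adjusted p = 0.0491).

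Fam107a, one of the strongest markers of human basal radial glia, was close to undetected. RGC-like cells held 0 UMIs of Fam107a in replicate 2 and 3 UMIs in replicate 4. A count of 0 among 8339676 UMIs allows a level of up to 0.360 CPM, and the other library had 0.265 CPM, so levels under that limit could not be told from 0 at this depth. IPC-like cells held 4 and 2 UMIs, excitatory neuron-like cells 2 and 4, and endothelial-like cells 3 and 0. The gene failed the filter on low counts and was tested in no comparison.

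Hopx was shared between RGC-like and hem or choroid plexus-like cells. It was at 25.7 and 41.8 CPM in RGC-like cells (mean 33.8 ± 11.4, SD, n = 2) and at 26.5 and 26.4 CPM in hem or choroid plexus-like cells, which lie inside the RGC-like range. The difference between both classes was 0.34 ± 0.46 on the log2 scale (1.96 SE interval -0.57 to 1.24, adjusted p = 0.59) and had opposite signs in the libraries, -0.14 in replicate 2 and 0.69 in replicate 4. IPC-like cells had 1.67 and 5.15 CPM, excitatory neuron-like cells 0.621 and 0.321 CPM, and GABAergic neuron-like cells 0 and 1.09 CPM from 0 and 4 UMIs. Hopx was above these classes by 3.18 ± 0.47 (adjusted p = 0.000504), 5.92 ± 0.53 (2.97e-06) and 5.44 ± 0.72 (9.17e-05). Cajal-Retzius-like cells, early neurons that partly come from the hem, had 12.5 and 8.50 CPM from 5 and 6 UMIs.

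Fabp7 and Aldoc were higher in RGC-like cells than in each of the 4 classes compared. Fabp7 was at 1862 and 1627 CPM in RGC-like cells, 188 and 158 CPM in IPC-like cells, 64.8 and 74.3 CPM in excitatory neuron-like cells and 15.6 and 62.5 CPM in GABAergic neuron-like cells. Hem or choroid plexus-like cells came second among the tested classes with 717 and 315 CPM. Fabp7 was higher in RGC-like cells by 3.27 ± 0.57 against IPC-like cells (adjusted p = 0.00147), 4.43 ± 0.60 against excitatory neuron-like cells (7.74e-05), 5.35 ± 0.64 against GABAergic neuron-like cells (4.63e-05) and 1.72 ± 0.54 against hem or choroid plexus-like cells (0.0225). The last call was lost when cells with 500 genes or more were kept (0.0505). Aldoc was at 329 and 299.9 CPM in RGC-like cells and at most at 36.9 CPM in another named class.
Its IPC-like values were 36.9 and 26.2 CPM, its excitatory neuron-like values 1.60 and 3.12 CPM, its GABAergic neuron-like values 1.67 and 7.88 CPM and its hem or choroid plexus-like values 23.2 and 12.5 CPM. The log2 differences were 3.25 ± 0.48 (adjusted p = 0.00049), 6.82 ± 0.57 (2.03e-06), 5.74 ± 0.61 (1.97e-05) and 4.04 ± 0.58 (0.000208), in the same order. No library of any of these classes reached the RGC-like range.

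**Figure D1:**
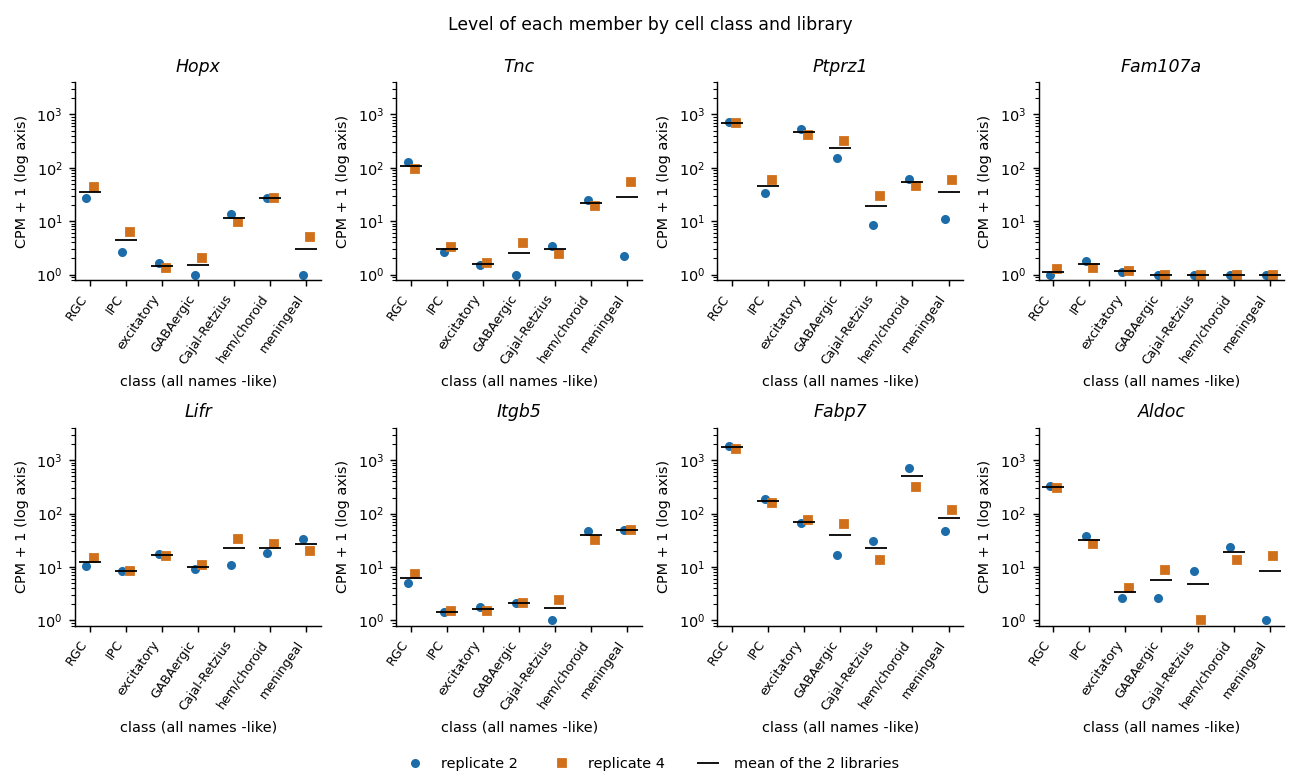
Level of each member in CPM + 1 (log axis) in the 7 classes that both libraries filled with 10 cells or more; points are the 2 libraries and the bar is their mean. Tnc and Aldoc stand highest in RGC-like cells. Ptprz1 is at 716 and 681.5 CPM in RGC-like and at 527 and 420.1 CPM in excitatory neuron-like cells. Itgb5 is highest in hem or choroid plexus-like and meningeal-like cells, and Fam107a is near 0 in all of these classes.

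Counted together, 7 of the 8 members passed the filter on low counts, among 14733 genes tested. Against IPC-like cells 6 of the 7 were higher in RGC-like cells, beside 14.1% of all genes tested that were called higher and 12.8% lower. Against excitatory neuron-like cells 5 were higher, beside 24.4% of all genes higher and 26.3% lower. Against GABAergic neuron-like cells 6 were higher, beside 23.7% higher and 23.3% lower. Against hem or choroid plexus-like cells 4 were higher and Itgb5 was lower, beside 22.4% higher and 21.8% lower. The median log2 difference of the 7 was 3.27, 4.43, 5.35 and 1.72 in these comparisons, where the medians of all genes were 0.03, -0.03, 0.01 and 0.10. With the size factors of DESeq2 in place of TMM the last of these moved to -0.03, and no member changed sign. These comparisons share the RGC-like sums, so their counts are not independent of each other. The members were chosen as radial glial genes, so a share above the background describes that choice.

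**Figure D2:**
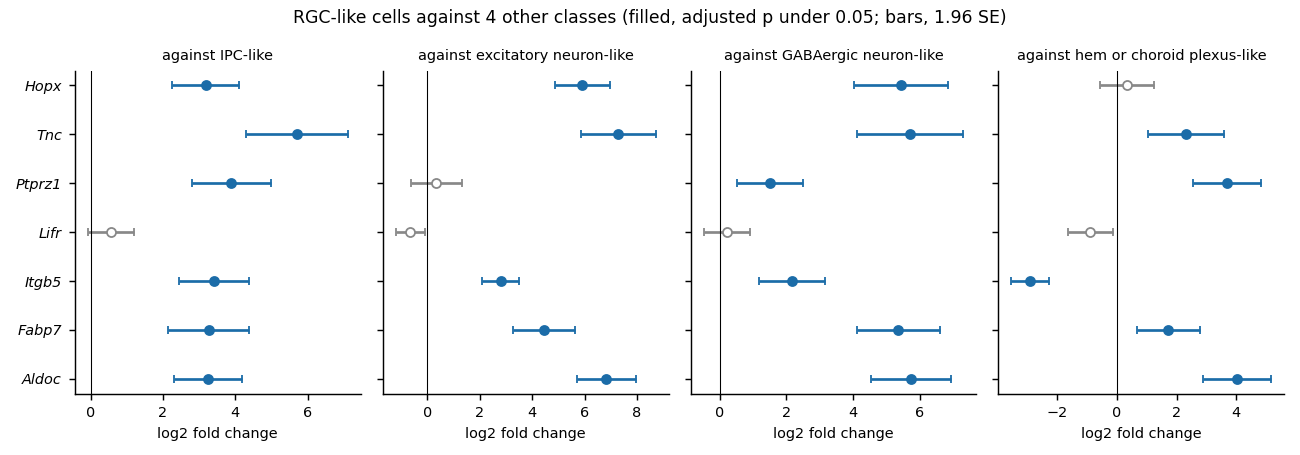
Log2 difference between RGC-like cells and each of 4 other classes for the 7 members tested (edgeR); bars span 1.96 SE on either side, and filled points have an adjusted p under 0.05. Tnc and Aldoc are filled in all 4 comparisons, Lifr in none, and Itgb5 lies below 0 (-2.91) against hem or choroid plexus-like cells.

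The partners of these genes were compared between RGC-like and IPC-like cells as 7 lists, beside 14.1% of all genes higher and 12.8% lower. Of 13 genes of LIF receptor signalling, 10 were tested, 2 were higher in RGC-like cells and 1 was lower, shares near those of all genes. The higher ones were the co-receptors Cntfr (1.56 ± 0.20 on the log2 scale, adjusted p = 0.000233) and Il6st (1.44 ± 0.27, 0.00238), and the lower one was the transcription factor Stat3 (-1.10 ± 0.36, 0.0403). Of 9 tested ligands and matrix partners of Ptprz1 and Tnc, 3 were higher and 1 lower. They included the Ptprz1 ligand Ptn, pleiotrophin (2.72 ± 0.48, 0.00154), the proteoglycan Bcan (2.46 ± 0.49, 0.00412) and the syndecan Sdc3, which was lower (-3.50 ± 0.22, 6.52e-06). Of 10 tested integrins and their kinases, 4 were higher and none lower, among them Itgav, the partner of Itgb5 (1.41 ± 0.21, 0.000456), Itgb8, another partner of Itgav (1.67 ± 0.21, 0.000211), and the laminin receptor subunit Itga6 (1.12 ± 0.32, 0.0226). The medians of the 3 lists were 0.41, 0.44 and 0.12, beside 0.03 over all genes.

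Of the 3 tested relatives of Fabp7 and Aldoc, Fabp5 was lower (-0.95 ± 0.25, adjusted p = 0.0156) and none was higher. Astroglial genes were the list with the largest median, 2.80 in 13 tested genes, with 9 higher and 1 lower. Those higher included the membrane protein Mlc1 (4.99 ± 0.61, 0.000222) and the endothelin receptor Ednrb (4.69 ± 0.50, 5.57e-05). Of 6 other genes linked to outer radial glia, 3 were higher and 1 lower (median 1.59). Here the growth factor Pdgfd (2.30 ± 0.49, 0.00586) and the monooxygenase relative Moxd1 (1.97 ± 0.62, 0.0388) were higher, and the ubiquitin ligase subunit Fbxo32 was lower (-2.62 ± 0.52, 0.0033). Of 7 tested genes of delamination and spindle orientation, 2 were higher and 2 lower (median -0.20). The junction protein Plekha7 was higher (3.48 ± 0.49, 0.000386), whereas Akna, a centrosomal protein that promotes delamination, was lower (-2.26 ± 0.25, 6.55e-05), as was the polarity protein Pard3 (-0.74 ± 0.20, 0.0186).

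Against the other classes the same 7 lists, in the order above, gave these counts. Relative to excitatory neuron-like cells (24.4% of all genes higher, 26.3% lower) the numbers higher and lower were 4 and 2, 3 and 5, 5 and 1, 0 and 2, 10 and 2, 4 and 1, and 3 and 2. Relative to GABAergic neuron-like cells (23.7% and 23.3%) they were 3 and 2, 3 and 5, 5 and 2, 1 and 1, 11 and 1, 3 and 1, and 2 and 2. Relative to hem or choroid plexus-like cells (22.4% and 21.8%) they were 2 and 2, 5 and 2, 5 and 1, 1 and 2, 3 and 5, 1 and 1, and 3 and 1. The 3 of 13 astroglial genes higher than in hem or choroid plexus-like cells are a share near that of all genes.

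The RGC-like class was made of 4 clusters, and the members did not share 1 pattern over them. Values over clusters are a description without a test, since the clusters were made from these cells, and their pattern was noticed after the values were seen. Tnc had its lowest level in the cluster led by Cdc20 and Cenpa (17.7 and 12.2 CPM in 38 and 67 cells). It had its highest in a cluster of 34 and 69 cells led by Ltbp1 and Gabrb1 (344 and 173 CPM), where Tnc itself and Aldoc are among the leading genes. The other clusters, one led by Gm29260 and Creb5 (93 and 128 cells) and one with Top2a and Mki67 among its leading genes (76 and 151 cells), lay between, at 94.1 and 119.8 and at 109 and 70.4 CPM. Besides the radial glial markers, the IPC markers Eomes, Neurog2, Btg2, Gadd45g and Mfap4 were raised in the cluster led by Ltbp1. Neurog2, Gadd45g and Insm1 were raised in the one led by Gm29260. In each library the cluster led by Ltbp1 was the highest for Tnc and the lowest for both Ptprz1 and Fabp7. Ptprz1 was at 183 and 235 CPM there, against 411 and 396 CPM in the cluster led by Cdc20, 938 and 920.4 CPM in the one led by Gm29260 and 802 and 745 CPM in the one with Top2a. Fabp7 was at 284 and 647 CPM in the cluster led by Ltbp1, against a range of 1674 to 2431 CPM over both libraries of the others.

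Hopx and Aldoc were spread more evenly. Aldoc ranged from 209.9 to 382 CPM over the 4 clusters and both libraries. Hopx ranged from 21.1 to 47.9 CPM in the 3 clusters other than the one led by Ltbp1. In that one it was 17.6 CPM in replicate 2 and 57.8 CPM in replicate 4, the lowest and the highest values of all, from 20 and 93 UMIs. The libraries therefore disagree on whether the cells with the most Tnc also had the most Hopx. Lifr was at 13.2 and 18.6 CPM in the cluster led by Ltbp1 and between 6.23 and 13.4 CPM in the others. Itgb5 reached 9.35 and 10.6 CPM in the cluster led by Cdc20 and 5.27 and 0 CPM in the one led by Ltbp1, from 6 and 0 UMIs.

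**Figure D3:**
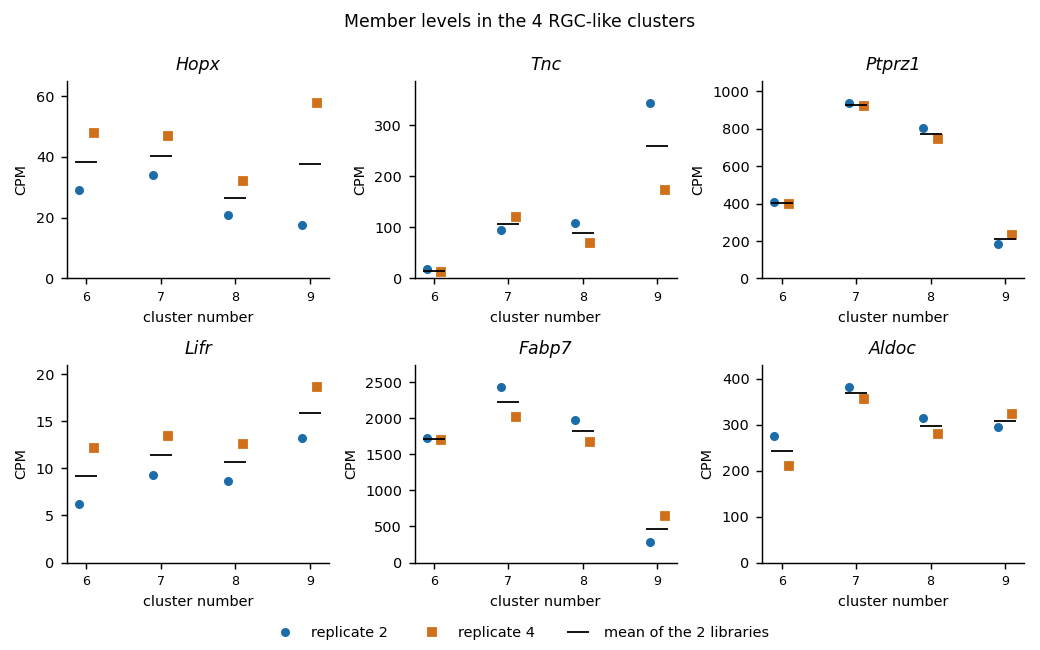
CPM of 6 members in the 4 RGC-like clusters, numbered 6 (led by Cdc20), 7 (led by Gm29260), 8 (with Top2a) and 9 (led by Ltbp1); points are the 2 libraries. Tnc is highest in cluster 9 (344 and 173 CPM), where Ptprz1 and Fabp7 are lowest.

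Cells were also split by scores of S and G2/M gene sets, which hold no member. Radial glia move their nuclei with the cell cycle, dividing at the ventricle and replicating their DNA away from it. The phases are scores of gene sets and not a direct measure of cycling, and the part of free RNA in them was not tested. The G1-like, S-like and G2/M-like groups held 69, 86 and 86 cells in replicate 2 and 82, 149 and 184 cells in replicate 4. Tnc was at 177 and 192 CPM in G1-like cells, 143 and 98.0 CPM in S-like cells and 78.1 and 55.2 CPM in G2/M-like cells, the same order in both libraries. Its difference between G2/M-like and S-like cells was -0.89 ± 0.21 on the log2 scale (adjusted p = 0.0499), and 0.0141 with the library as a block, that is, with the sums of each library paired. The unblocked call was lost in cells thinned to 5000 UMIs (0.0635), when cells with 500 genes or more were kept (0.169) and at a clustering resolution of 0.5 (0.260). Aldoc had its peak in S-like cells, at 450.3 and 389 CPM, against 286 and 278 CPM in G1-like and 237 and 241 CPM in G2/M-like cells. It was lower in G2/M-like than in S-like cells, with a log2 difference of -0.84 ± 0.11 (adjusted p = 0.00322).

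Fabp7 was at 2270 and 1857 CPM in S-like cells, 1674 and 1631 CPM in G2/M-like cells and 1525 and 1098 CPM in G1-like cells. The S-like values were the highest in both libraries, and the difference of G2/M-like cells was -0.35 ± 0.15 (adjusted p = 0.234). Hopx was at 33.3 and 49.1 CPM in S-like cells and 18.5 and 35.2 CPM in G2/M-like cells, a difference of -0.62 ± 0.34 (0.343), with G1-like values of 25.5 and 45.6 CPM. With the library as a block, both passed, Fabp7 at an adjusted p of 0.0478 and Hopx at 0.0333. Ptprz1 (-0.13 ± 0.09), Lifr (-0.55 ± 0.37) and Itgb5 (0.50 ± 0.42) did not pass in either fit. In all, 2 of 7 members were lower and none higher, beside 3.23% lower and 2.51% higher among 12190 genes tested. The block raised the number of called genes from 700 to 1196, 3.86% higher and 5.95% lower, and that of called members from 2 to 4.

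By size of the difference, Pif1, Cenpa, Cdc20, Ccnb1 and Arhgef39 led those higher in G2/M-like cells, and Gm12865, 4932435O22Rik, Ung, Acacb and Ak8 those lower, where Cenpa, Cdc20 and Ung belong to the sets that defined the phases. Gm12865 came from 2 and 1 cells of the RGC-like class, with 98.8 and 100% of its UMIs in 1 cell of each library. In the 7 companion lists, where 8, 7, 8, 2, 13, 5 and 6 genes were tested, 4 genes were called, beside the 3.23% lower and 2.51% higher over all genes. Mdk, a relative of Ptn, the aldolase Aldoa and Moxd1 were lower in G2/M-like cells, and the spindle orientation gene Gpsm2 was higher.

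**Figure D4:**
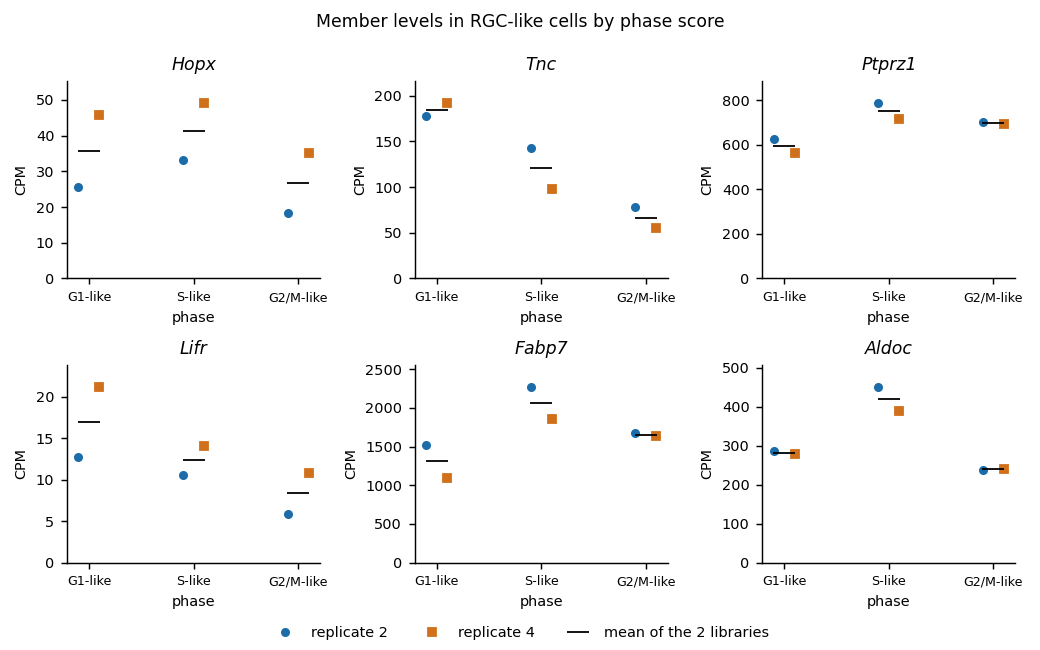
CPM of 6 members in G1-like, S-like and G2/M-like cells of the RGC-like class; points are the 2 libraries. Tnc is at 177 and 192 CPM in G1-like and 78.1 and 55.2 CPM in G2/M-like cells, whereas Aldoc and Fabp7 are highest in S-like cells.

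Detection per cell depended on the depth of the cells. Hopx had a UMI in 42.7% of the 241 RGC-like cells of replicate 2 and in 45.3% of the 415 of replicate 4 (exact Clopper-Pearson 95% interval of the latter 40.4 to 50.2%). The mean share was 1.07% in excitatory neuron-like cells, which had 12 and 7 Hopx UMIs in all and have a like depth (medians of 34011.5 and 24733 UMIs, against 32611 and 26768 UMIs in RGC-like cells). With each cell thinned to 5000 UMIs, which left out 8 and 15 shallower cells, the Hopx shares were 12.4 and 17.0% in RGC-like cells and the mean was 0% in excitatory neuron-like cells. The shares therefore moved with the depth per cell. Intervals and floors of this kind cover counting error only.

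Tnc was seen in 51.9 and 34.9% of RGC-like cells, against a mean of 1.24% in excitatory neuron-like cells, and the order of the libraries held after thinning (27.0 and 21.0%). Ptprz1 was seen in 93.8 and 93.3%, but also in a mean of 63.0% of excitatory neuron-like cells. Fabp7 was seen in 93.4 and 94.0%, where excitatory neuron-like cells had 64.1% and, thinned, 25.4% against 87.1 and 86.8%. Aldoc was seen in 94.6 and 91.8% against 4.84%. Lifr was seen in 19.1 and 21.0%, beside 22.4% of excitatory neuron-like cells. Itgb5 was seen in 7.88 and 9.40% against 1.79%. Fam107a was seen in 0 of 241 cells, which allows a share of cells with a UMI of up to 1.24% (3 cells of the total), and in 3 of 415 cells (0.723%), beside a mean of 0.415% in excitatory neuron-like cells.

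Of the 8 members, 4 or more were seen in 168 of 241 cells (69.7%) and 274 of 415 cells (66.0%), and all 8 in none. At 5000 UMIs per cell these shares were 21.9 and 24.5%. Over the 21 pairs of the 7 detected members, the median ratio of cells with both to the product of the single shares was 1.02 in each library. Ptprz1, Fabp7 and Aldoc were each seen in nearly every cell, so a pair that holds one of them cannot have a ratio far above 1, and 15 of the 21 pairs are of this kind. The other 6 pairs follow as numbers of cells. Hopx and Tnc were both present in 63 cells of replicate 2, where 53.4 would follow from the single shares, and in 67 cells of replicate 4, where 65.7 would. At 5000 UMIs per cell the numbers were 13 against 7.84 and 18 against 14.3. At 10000 UMIs they were 19 against 14.1 and 27 against 28.6, so replicate 4 fell below the product there. Tnc and Lifr were together in 29 cells against 23.9 and in 42 against 30.4, and Tnc and Itgb5 in 14 against 9.85 and in 26 against 13.6. At 10000 UMIs per cell Tnc and Lifr were together in 12 cells against 7.63 and in 13 against 9.70, and Tnc and Itgb5 in 4 against 1.91 and in 12 against 4.45. Hopx and Lifr were together in 22 cells against 19.7 and in 49 against 39.4, Hopx and Itgb5 in 8 against 8.12 and in 15 against 17.7, and Lifr and Itgb5 in 3 against 3.63 and in 7 against 8.18. Tnc and Fabp7 were together slightly less often than the product, with ratios of 0.960 and 0.954. Deeper cells hold more of every gene. The mean ratio of Tnc and Itgb5 was 1.66 with all UMIs and 2.40 at 10000 UMIs, and that of Tnc and Lifr 1.30 and 1.46, and the part of the clusters in these ratios was not tested.

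Cells with Hopx, Tnc and Ptprz1 together were 59 of 241 (24.5%, exact 95% interval 19.2 to 30.4%) and 64 of 415 (15.4%, 12.1 to 19.3%). They were 0 of 552 and 0 of 857 excitatory neuron-like cells and 0 of 151 and 0 of 248 IPC-like cells, which allows shares of cells with all 3 UMIs of up to 0.543, 0.350, 1.99 and 1.21% (3 cells of the total). At 5000 UMIs per cell they were 10 of 233 (4.29%) and 15 of 400 (3.75%) RGC-like cells.

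RGC-like cells with and without a Hopx UMI were then compared, without Hopx itself. The 103 and 188 cells with Hopx were deeper than the 138 and 227 without (medians of 37107 against 30677 UMIs and 29035 against 24030 UMIs). Fewer of them were G1-like, 20.4 against 34.8% and 12.2 against 26.0%. The cluster with Top2a held 41.7 against 23.9% of them in replicate 2 and 38.3 against 34.8% in replicate 4, and the cluster led by Ltbp1 8.74 against 18.1% and 14.4 against 18.5%. The part of depth, phase and cluster in the comparison was not tested. No member separated these cells. Aldoc was at 373 and 333 CPM with Hopx and 286 and 267 CPM without, higher in both libraries by 0.37 ± 0.10 on the log2 scale, but the adjusted p was 0.678, and 0.126 with the library as a block. Only without a filter on low counts did Aldoc pass (adjusted p = 0.0464). Tnc was at 122 and 79.4 CPM with Hopx and 129 and 105 CPM without (-0.21 ± 0.21, adjusted p = 0.986). In cells thinned to 5000 UMIs the sign turned, with a difference of 0.67 (adjusted p = 0.621). Ptprz1 and Fabp7 went in opposite directions in the libraries. Ptprz1 differed by 0.38 in replicate 2 and -0.42 in replicate 4, and Fabp7 by 0.51 and -0.24. Lifr was at 9.75 and 17.1 CPM with Hopx and 8.73 and 10.1 CPM without, and Itgb5 at 3.90 and 6.16 CPM and 4.25 and 6.40 CPM. Their differences were 0.54 ± 0.31 and -0.06 ± 0.39.

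Over 12674 genes the same fit called none (0% higher and 0% lower), with 715 genes at an unadjusted p under 0.05, and DESeq2's Wald test called 23. With the library as a block edgeR called 27, of which 11 (0.0868%) were higher and 16 (0.126%) lower with Hopx. For 9 of the 27, over 25% of the UMIs in a library lay in 1 cell. The following genes are named after their values were seen. Gadd45g, a gene of the switch to IPCs, was at 33.1 and 31.7 CPM with Hopx and 187 and 119 CPM without (block, -2.17 ± 0.14, adjusted p = 0.00327). Eomes, the transcription factor of IPCs, was at 16.3 and 13.9 CPM with Hopx and 41.3 and 58.7 CPM without (block, -1.72 on the log2 scale, adjusted p = 0.024). Hes6 was at 36.1 and 44.4 CPM against 94.2 and 82.5 CPM (block, -1.10, adjusted p = 0.0336). All of these were lower in both libraries, with an adjusted p between 0.151 and 0.182 without the block. The proneural gene Neurog2 had 69.2 and 84.9 CPM against 238 and 142 CPM and was not called (block, -1.23, adjusted p = 0.0735).

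Higher with Hopx under the block was Zic4, a zinc finger transcription factor, at 16.6 and 31.3 CPM against 2.60 and 4.09 CPM (2.85 ± 0.25, adjusted p = 0.00694). Its UMIs came from 18 and 40 cells with Hopx and from 8 and 6 cells without, and up to 22.1% of them lay in 1 cell. The Hopx-positive cells of replicate 4 included 1 cell with 44.2% hemoglobin UMIs, which set the erythroid marker sum of RGC-like cells at 2388 CPM there against 69.7 CPM in replicate 2. Without that cell, as without the cluster led by Ltbp1, both chosen after seeing the data, the unblocked fit again called no gene.

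**Figure D5:**
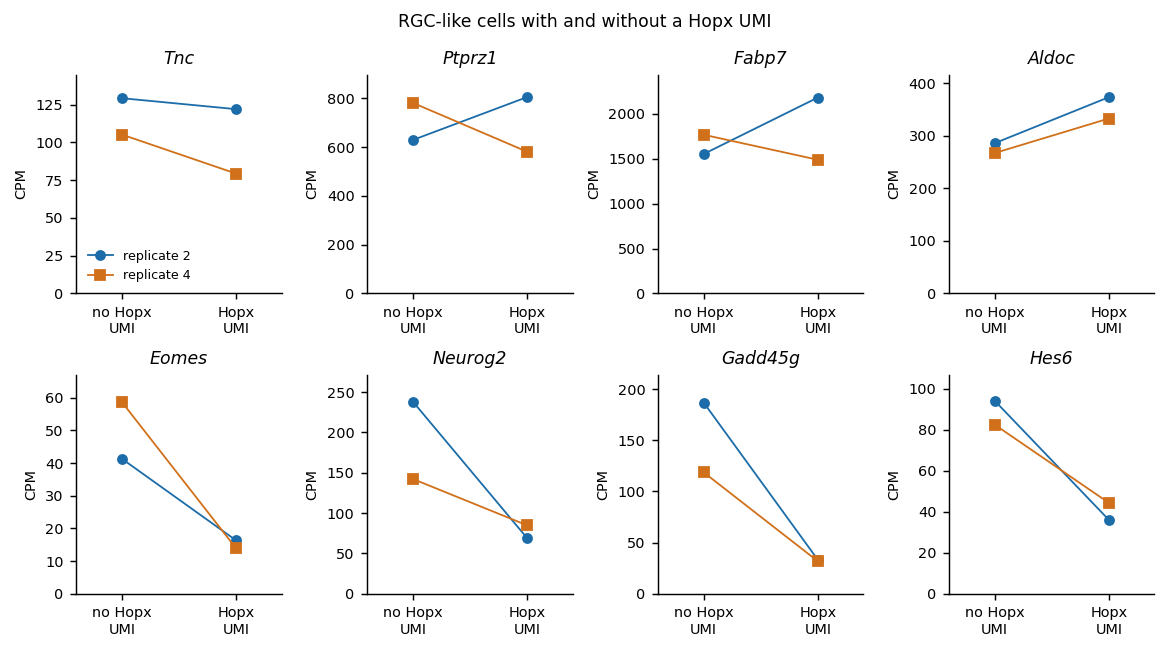
CPM of 4 members and of Eomes, Neurog2, Gadd45g and Hes6 in RGC-like cells without and with a Hopx UMI; lines join the sums of 1 library. Aldoc lies higher with Hopx in both libraries (373 against 286 and 333 against 267 CPM), Ptprz1 and Fabp7 cross, and Eomes, Neurog2, Gadd45g and Hes6 lie lower with Hopx in both (Neurog2 was called in neither fit and none was called without the block), for example Gadd45g at 33.1 and 31.7 CPM against 187 and 119 CPM.

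Genes with the most similar pattern were listed by Pearson's r of log2(CPM + 1) over the 14 sums of 7 classes and 2 libraries, as a description. The sums of one library share its depth and free RNA. For Hopx they were Sox9 (r = 0.942), Nwd1 (0.937) and 1700113A16Rik (0.927), and for Tnc they were Gsr (0.931), 8030451A03Rik (0.904) and Hmgn3 (0.901). For Ptprz1 they were Atxn7l1os1 (0.889), Atxn7l1 (0.888) and Rnd1 (0.883), where the first is named as an opposite-strand transcript of the second. For Lifr they were Rapgefl1 (0.894), Saysd1 (0.887) and Rec114 (0.877). For Itgb5 they were Apoe (0.983), Gm15270 (0.982) and Hapln3 (0.978). Fabp7 was most like Dnph1 (0.957), Fzd9 (0.938) and Klf15 (0.931), and Aldoc was most like Rhcg (0.928), Cep72 (0.920) and Kcnj10 (0.911).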

How the data were processed

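Single-cell 3′ libraries (10x Genomics, v3.1) from dissected dorsal telencephalon, 2 in all and both labelled WT, were read. The authors deposited raw UMI counts per gene and barcode, made with Cell Ranger 7.0.0 on mm10 per the labels' processing notes. Cell Ranger of this version counts intronic reads by default, and whether that was changed is not given in the sources used here.

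Cells with at least 1000 genes, at most 10% mitochondrial UMIs and no doublet call were kept. Doublet calls removed 14 (1.16%) and 15 (0.761%) cells. Clusters (scanpy 1.11.5; 2000 variable genes without members and list genes, 30 components, 20 neighbours, Leiden resolution 1) were named where at least 3 fixed markers were raised, except that a shallow cluster with none of its markers among its 10 leading genes was not named, and 89 and 81 cells stayed unnamed. The classes were rebuilt here and may differ from the study's. Counts were summed per library and class, given as CPM, and tested in edgeR 4.0.16 (quasi-likelihood, TMM, filterByExpr, adjusted p under 0.05), with all classes of at least 10 cells per library in 1 fit. Intervals are 1.96 SE. DESeq2 1.42.0 was an alternative. The code was tested on simulated data. Sums of a library are paired by design. Their deviations correlated at 0.013 to 0.264 over 21 pairs of classes, 0.315 in the Hopx split and 0.132 to 0.308 over 3 pairs of phases.

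The 8 members and the 7 lists were chosen with earlier results of these data known. Named genes were the members, up to 3 called genes per list with the largest difference from IPC-like cells, up to 5 called genes per direction in the Hopx and phase splits, and 3 genes per member by correlation; others are said to be named after their values were seen. One gene that the rule names is not reported here.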

Additional observations from a re-analysis of the deposited data

Results flagged for a closer look

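Several members were seen in cells that no comparison above used, at levels above those of the radial glia-like class in both libraries. Itgb5 had a mean of 129.7 CPM (118 and 142 CPM in replicates 2 and 4) in an unnamed cluster of 52 and 38 shallow cells led by Cyba, Lgals1 and Mt1, with hemoglobin genes among its leading genes. Itgb5 also had a mean of 169.8 CPM in mural-like cells, the contractile cells around vessels, from 18 and 39 UMIs in 3 and 9 cells. Lifr had a mean of 50.3 CPM (54.5 and 46.0 CPM) in 9 and 18 endothelial-like cells, from 16 and 18 UMIs. Another unnamed cluster, of 37 and 43 cells, had 8 of the 11 radial glial markers raised and a median depth of 0.185 relative to that of the cells of its own libraries. There Tnc had a mean of 219.7 CPM and Ptprz1 a mean of 1308 CPM (1184 and 1431 CPM). The cluster stayed unnamed because of its depth, and what its barcodes hold was not tested.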

How the results depend on the processing

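Of 148 counts and median ratios compared with an alternative, 133 stayed close to the reported value, a check of size and not of direction. Of the values of single members and pairs, 577 stayed the same and 58 moved. A further 16 gained a call, 7 lost one and 10 turned their sign. In the Hopx split the number of genes called by edgeR, 0 as reported, was 382 without a filter on low counts, 23 with DESeq2, 27 with the replicate block and 2 with cells thinned to 5000 UMIs, and 1 member, Aldoc, was called with all genes (adjusted p = 0.0464). In the phase split, 700 genes as reported became 1605 with all genes, 352 thinned and 1196 with the replicate block. The called members, 2 as reported, became 4 with all genes and with the block, and 1 at a clustering resolution of 0.5, with 500 genes per cell, and thinned. The block changed no other call. The median co-detection ratio, 1.02 as reported, was 1.09 at 5000 and 1.02 at 10000 UMIs. Signs turned only for members that had not passed the test. Ptprz1 against excitatory neuron-like cells was -0.0088 with the members among the variable genes, and Lifr against GABAergic neuron-like cells was -0.11 when the UMIs of each cell were divided between naming and testing. In the Hopx split, Tnc was 0.0016 with at least 2 Hopx UMIs and 0.67 thinned, Ptprz1 was 0.077 thinned, Itgb5 was 0.012 at resolution 2 and 0.014 with doublets kept, and Fabp7 was -0.15 at resolution 0.5 and -0.041 with at most 5% mitochondrial UMIs. Ptprz1 between phases was 0.15 at resolution 0.5. The cause was not tested. The number of RGC-like cells was 227 at resolution 0.5 and 539 to 674 under the other filters and clusterings. The comparison with hem or choroid plexus-like cells could not be fitted at resolutions 0.5 and 2 or with split UMIs, for too few cells. With 1 library left out no residual spread remains, so only values were recomputed. Depth limits Fam107a, with 0 and 3 UMIs in RGC-like cells.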
